A study of Mus musculus with 6 samples.

Results

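The transcripts described here are those of the neuronal intermediate filament subunits: the light, medium and heavy neurofilament proteins (Nefl, Nefm and Nefh) and α-internexin (Ina). The 4 genes were taken by symbol from a table of 24411 genes in mouse cortical neuron cultures, and all 4 had enough counts to be tested. They were selected on family membership with the PFF against PBS differences of these same 6 libraries in view. Their differences between the groups are therefore given as a description, with no test of their own.

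Neurofilaments are the intermediate filaments of the axon. Nefl forms the core of the filament by assembling with Nefm, Nefh or α-internexin, and the long tails of Nefm and Nefh project from its surface and carry many phosphorylation sites. Filament content is linked to axon calibre. α-Internexin appears early in neuronal development and Nefh late, and neurofilament light chain released from damaged axons is measured in body fluids as a marker of axonal injury.

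The cultures were prepared from the cortex of mouse embryos at day 18 and received either PBS or mouse α-synuclein preformed fibrils (PFF), aggregates that seed aggregation of the cell's own α-synuclein. The medium of the PFF cultures received 3.45 µM fibrils on culture day 10, and total RNA was collected on culture day 18. The labels give no genotype or strain and no control other than PBS, and they do not say whether the 3 libraries of a group came from separate cultures. The p-values for other genes below thus measure the spread between these libraries, which may be technical.

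Library totals ranged from 9224974 to 10742383 estimated counts. Of the 13919 genes tested, 554 rose and 362 fell after PFF at an adjusted p under 0.05 in edgeR's quasi-likelihood test. All 15 neuron markers were detected, at a summed 8472 to 8684 CPM (counts per 1000000, scaled between libraries) in PBS and 8204 to 9125 CPM in PFF. Astrocyte markers were also present, at a summed 3623 to 4740 CPM in PBS and 3511 to 4513 CPM in PFF. The endothelial marker Cldn5 had 0 counts in every library, while the endothelial markers Pecam1 and Kdr were low but present. All endothelial, pericyte and fibroblast markers summed to 39.9 to 51.3 CPM in PBS and 28.7 to 47.2 CPM in PFF. Replicate 3 of each group stood apart from the other libraries. Chi-square per degree of freedom between replicates was 2.698 between PBS 1 and PBS 2 and 2.895 between PFF 1 and PFF 2, against 7.18 to 9.196 for pairs that held a replicate 3.

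On GRCm38 (GENCODE vM21), Nefl lies on chromosome 14 from 68083863 to 68089095 on the plus strand, and Nefm on the same chromosome from 68082590 to 68124846 on the minus strand. Ina (chromosome 19, 47014698 to 47025327) and Nefh (chromosome 11, 4938754 to 4948064) lie elsewhere. Each of the 4 encodes a protein and has few exons, with 4 in the Nefl transcript. Nefm has 2 annotated transcripts. The shorter one (Nefm-201, 68119283 to 68124846) ends well away from Nefl. The longer one (Nefm-202) runs on across the whole of Nefl on the opposite strand, and its exons share 1108 bases with those of Nefl. That is 32.8% of the exonic bases of Nefl and 19.2% of those of Nefm. In Ina, 456 exonic bases (14.1%) are shared with Nt5c2 on the opposite strand, and Nefh shares none with another gene. The library kit marks strand, but the sources used here do not give the strand setting of the counting, so reads from the shared bases may have been assigned to either gene. The estimated counts of Nefl were whole numbers in all 6 libraries, whereas those of Nefm and Nefh were fractional in all 6 and those of Ina in 3. Fractions can arise where a read is divided between entries, but the sources used here do not name the counting tool. The fractions did not follow the shared bases, since Nefl had such bases and no fractions, while Nefh had fractions and no such bases.

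The sequence just upstream of Ina is shown because it is the promoter of a gene in the group for which a RefSeq entry was matched (1 of the 4 genes, GRCm38.p6). It covers 250 bases, chr19:47014431-47014680 on the plus strand, written 5′ to 3′ and ending at the base before the RefSeq start (47014681), which lies 17 bases before the GENCODE start given above. Capitals mark the motif matches described next.
Ina: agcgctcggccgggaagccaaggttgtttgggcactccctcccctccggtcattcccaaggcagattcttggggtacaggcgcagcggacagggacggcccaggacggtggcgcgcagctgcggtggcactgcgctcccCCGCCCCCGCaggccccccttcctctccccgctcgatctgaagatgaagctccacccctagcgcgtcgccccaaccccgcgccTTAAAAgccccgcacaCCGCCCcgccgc
Of these bases 70.8% are G or C, against a median of 52.4% over 32851 promoter windows of this length. Both strands were searched for TATAAA (the TATA box) and its variant TTAAAA, for GGGCGG (the Sp1 core) and CCAAT (the CCAAT box), and for TGACGTCA (the cyclic AMP response element), TGANTCA (the AP-1 site) and GCGNGGGCG (the Egr site). TTAAAA was added after the sequence had been read. Positions are counted from the RefSeq start. TTAAAA lies from −28 to −23 (−45 to −40 from the GENCODE start) and is held by 17.7% of all promoters. GGGCGG matches on the minus strand at −111 to −106 and at −12 to −7, and 32.7% of promoters hold it. GCGNGGGCG matches on the minus strand at −110 to −102, overlapping the first of these, and 4.70% of promoters hold it. TATAAA (12.4% of promoters), CCAAT (33.8%), TGACGTCA (1.55%) and TGANTCA (6.75%) do not occur in this window. A match is a description of the letters and not evidence that a factor binds.

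All 4 subunit transcripts were higher in the PFF cultures than in the PBS cultures. The largest difference was in Nefm and the smallest in Nefl. For each gene the lowest PFF library lay above the highest PBS library, an ordering found upwards for 13.4% of all genes tested. In the fit over all genes 3 of the 4 (Nefm, Nefh and Ina) passed an adjusted p under 0.05 upwards, where 3.98% of all genes did. Since the genes were chosen with this contrast in view, nothing is read from that count. It was 1 (Nefm) when PBS 1, PBS 2, PFF 1 or PFF 2 was left out. Upward calls over all genes were then 354, 367, 384 and 312, against 554 with all libraries. The count of subunit genes was 4 in replicates 1 and 2 alone, where 8.78% of all genes passed upwards and 8.38% downwards. It was also 4 without PFF 3, where 6.19% and 7.01% did. It was 2 (Nefm and Nefh) in DESeq2 and with upper-quartile scaling, where 497 and 516 of all genes passed upwards.

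Nefm, whose tail projects from the filament, had 64.9, 72.4 and 71.4 CPM in PBS 1, 2 and 3, and 100.2, 130.02 and 102.1 CPM in PFF 1, 2 and 3. The PFF libraries stood at least 27.8 CPM above the PBS libraries, and PFF 2 was the highest. The means were 69.6 ± 4.11 CPM in PBS and 110.8 ± 16.7 in PFF (SD, n = 3 per group here and below), a log2 fold change of 0.67 ± 0.10 (SE), or 1.59-fold. Behind these values were 599 to 1328 estimated counts per library.

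Nefh, the heavy subunit with the longest phosphorylated tail, was the least abundant, with 230 to 402 estimated counts per library. It had 24.9, 24.9 and 32.3 CPM in PBS and 35.3, 39.4 and 35.5 CPM in PFF. The groups came close to each other, since PBS 3 lay 2.94 CPM below the lowest PFF library while PBS 1 and 2 were nearly equal and lower. The means were 27.4 ± 4.31 CPM and 36.7 ± 2.30 CPM, with a log2 fold change of 0.42 ± 0.11. Without PBS 3 the difference was 0.56, and with replicates 1 and 2 only it was 0.59.

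Nefl, the core subunit, had 211.9, 216.5 and 228.1 CPM in PBS and 257.6, 284.1 and 239.8 CPM in PFF. PFF 3 was the lowest PFF library, 11.7 CPM above PBS 3, and PFF 2 again the highest. The means were 218.8 ± 8.34 CPM and 260.5 ± 22.3 CPM, and the log2 fold change was 0.25 ± 0.08, or 1.19-fold. Nefl gave 1957 to 2902 counts per library. Leaving out PFF 2 lowered its log2 fold change to 0.19.

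Ina had 68.9, 69.6 and 73.4 CPM in PBS and 88.2, 87.9 and 81.0 CPM in PFF. Within each group the libraries lay close together, and the groups were 7.53 CPM apart at their nearest. The means were 70.6 ± 2.45 CPM and 85.7 ± 4.10 CPM, with a log2 fold change of 0.28 ± 0.08. Each library held 636 to 915 counts of Ina.

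**Figure D1:**
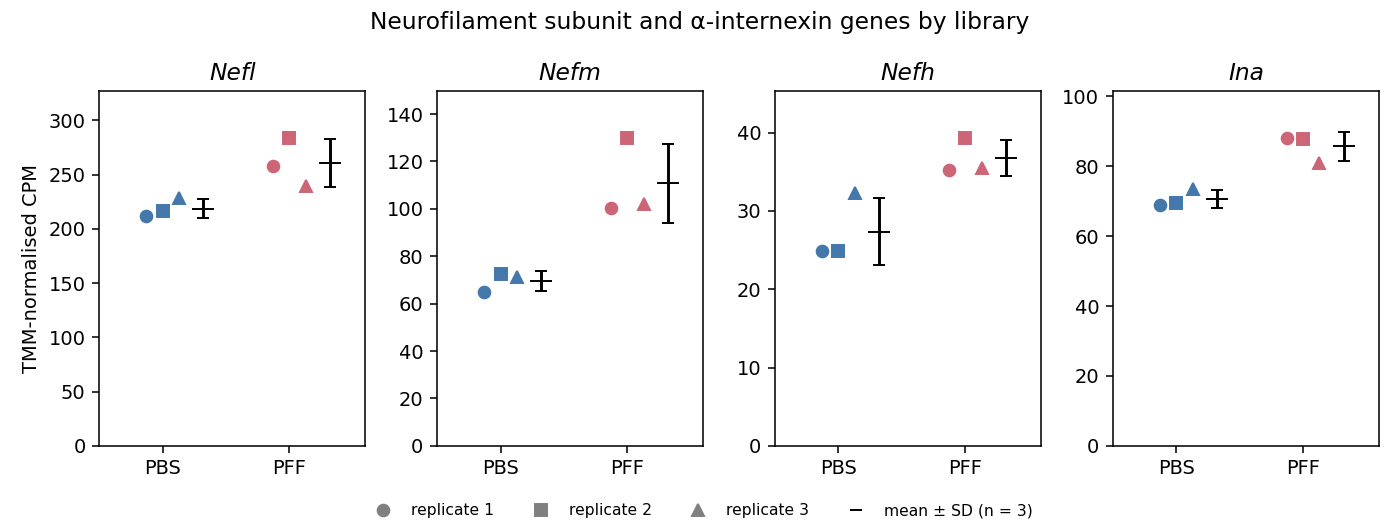
TMM-normalised CPM of Nefl, Nefm, Nefh and Ina (y axes, each from 0) in the PBS and PFF libraries (x axis), with 1 point per library, its shape giving the replicate number, and the mean ± SD beside them (n = 3). All PFF points lie above all PBS points in each panel, with the nearest approach in Nefh (PBS 3 at 32.3 and PFF 1 at 35.3 CPM).

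The median log2 fold change of the 4 genes was 0.35, beside −0.001 over all genes tested. Every setting tried left each of the 4 higher in PFF, with log2 fold changes of 0.19 to 0.34 for Nefl, 0.54 to 0.75 for Nefm, 0.35 to 0.59 for Nefh and 0.26 to 0.35 for Ina. The range of log2 CPM within PBS was 0.11 for Nefl, 0.16 for Nefm, 0.38 for Nefh and 0.09 for Ina. Within PFF it was 0.24, 0.38, 0.16 and 0.12 in the same order. The difference between groups was thus larger than the range within either group for Nefl, Nefm, Nefh and Ina, by the narrowest margin for Nefl (0.25 against 0.24).

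**Figure D2:**
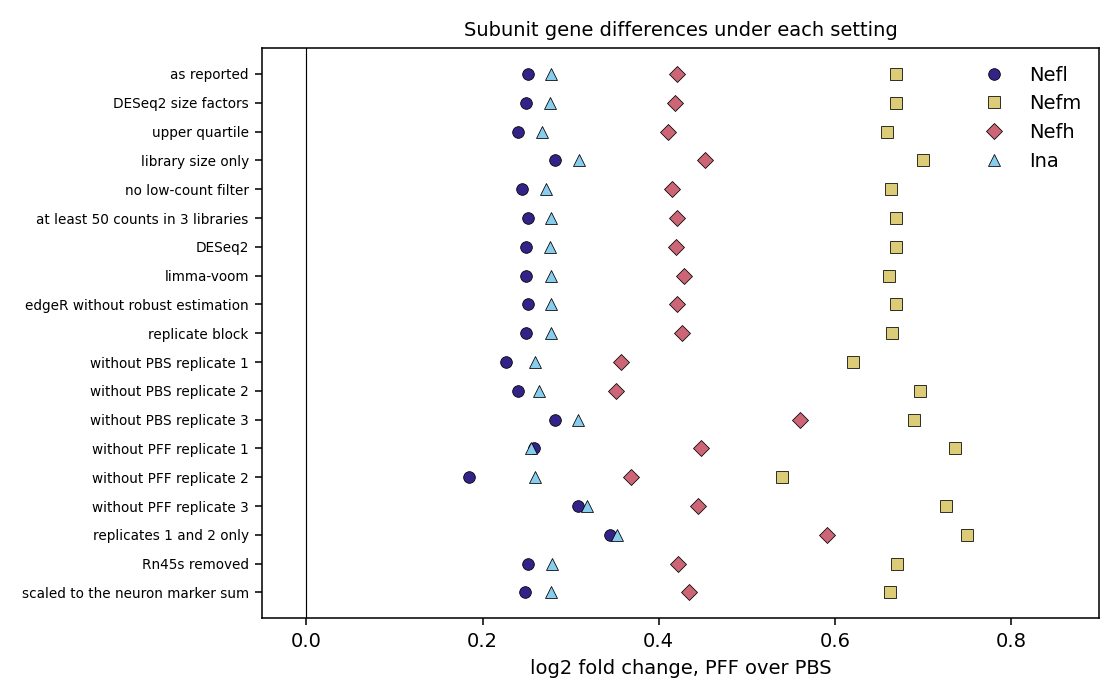
log2 fold change of PFF over PBS (x axis) for the 4 subunit genes under the reported fit and 18 alternative settings (y axis). All points lie above 0 and Nefm is the highest in every row, while Nefh ranges from 0.35 to 0.59 depending on which libraries enter.

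Per kilobase of exonic sequence, the transcripts stood in the order Nefl, Ina, Nefm and Nefh in both groups. In PBS the levels were 64.7 ± 2.47 CPM per kb for Nefl, 21.8 ± 0.755 for Ina, 12.03 ± 0.710 for Nefm and 6.85 ± 1.08 for Nefh. In PFF they were 77.1 ± 6.59, 26.4 ± 1.26, 19.2 ± 2.88 and 9.19 ± 0.575 CPM per kb. Neighbours in this order differed by more than their SDs. By mean CPM per kb over all libraries, Nefl ranked 619th of 13404 tested genes with an annotated length, Ina 2082nd, Nefm 3147th and Nefh 5451st. The place of Nefm depends on the length used, because its exonic length of 5782 bases joins the exons of both transcripts, while the longer of these, Nefm-202, has 3680 bases. Over the longest transcript Nefm came to 18.9 ± 1.1 CPM per kb in PBS, below Ina. In PFF it came to 30.1 ± 4.53, and the difference from Ina at 26.4 was within the SD of Nefm.

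The composition of the subunit pool differed between the groups mainly in Nefm and Nefl. As a share of the summed CPM per kb of the 4 genes, Nefm made up 11.1, 12.01 and 11.2% in PBS and 13.4, 15.7 and 14.4% in PFF. Nefl made up 61.8, 61.4 and 61.0% in PBS and 58.8, 58.6 and 57.9% in PFF. The groups did not overlap for either of these shares, which was not counted for other groups of genes. The 4 shares of a library make up one whole, so these 2 are not separate results. The CPM of Nefl was itself higher in PFF. Those of Nefh (6.48 ± 0.735% and 6.98 ± 0.241%) and Ina (20.7 ± 0.245% and 20.1 ± 1.08%) overlapped between the groups. Over the longest transcript the Nefm share was 16.8 ± 0.719% in PBS and 21.0 ± 1.54% in PFF. The ratio of Nefm to Nefl counts, which needs no length or scaling, was 0.306, 0.334 and 0.313 in PBS and 0.389, 0.458 and 0.426 in PFF. It still depends on how reads from the exonic bases shared by the 2 genes were assigned, which is not known. The ratio of Nefm to Ina counts was 0.985 ± 0.0502 in PBS and 1.29 ± 0.173 in PFF. These ratios also had no overlap between groups, which was not counted for other gene pairs. By contrast, the ratio of Ina to Nefl counts was 0.323 ± 0.00191 in PBS and 0.330 ± 0.0177 in PFF, and that of Nefh to Nefl 0.125 ± 0.0148 and 0.141 ± 0.00612, both with overlap.

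**Figure D3:**
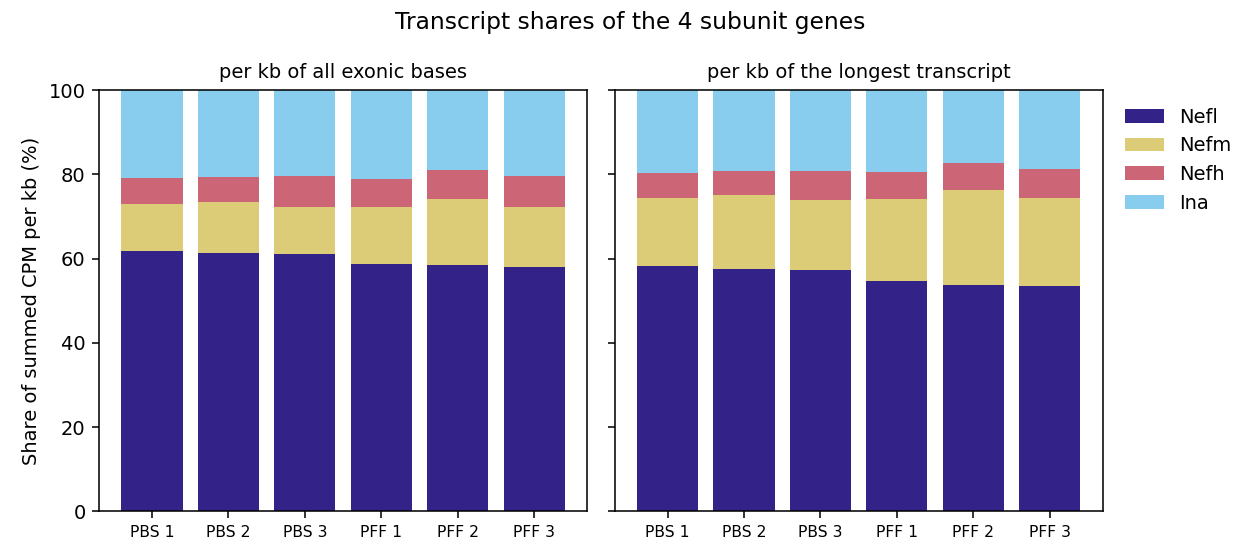
Share of each subunit gene in the summed CPM per kb of Nefl, Nefm, Nefh and Ina (y axis, %) in each library (x axis), with length taken as all exonic bases (left) or the longest transcript (right). The Nefm share is larger and the Nefl share smaller in all 3 PFF libraries under both lengths.

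The 4 transcripts were also compared with each other from library to library within the groups. After subtraction of the group means, Pearson's r of log2 CPM over the 6 libraries was 0.84 for Nefm and Nefl, 0.83 for Ina and Nefl, 0.67 for Nefh and Nefl, 0.66 for Ina and Nefh, 0.49 for Nefh and Nefm and 0.43 for Ina and Nefm. The points share library, depth and scaling, and few are free once the group means are removed. Other gene pairs were not compared, so these values are descriptive and joint variation of the 4 is not read from them.

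Because neurons are only part of the culture, the subunit genes were also set against neuron markers. In bulk RNA, more cells of a type and more RNA per cell cannot be told apart. The summed CPM of the 15 markers was 8582 ± 106 in PBS and 8594 ± 477 in PFF. Nefm came to 0.766, 0.834 and 0.831% of that sum in PBS and to 1.22, 1.42 and 1.21% in PFF. Nefl came to 2.55 ± 0.0914% in PBS and 3.03 ± 0.168% in PFF, and Ina to 0.823 ± 0.0281% and 0.999 ± 0.0660%. Nefh came to 0.294, 0.286 and 0.376% in PBS and to 0.430, 0.431 and 0.420% in PFF. Each PFF library again lay above each PBS library for all 4 genes. Since the mean sum was nearly equal in the groups, this largely repeats the ordering in CPM. The share of all genes so ordered on this scale was not counted. The marker sum is weighted to its most abundant genes, Camk2a and Map2, which had lower means in PFF. Camk2a had 1651 CPM in PBS and 1379.5 CPM in PFF, and Map2 had 1597 and 1439.5 CPM. Of the 15 markers, 10 had a log2 fold change above 0 and 5 below 0, so a level sum does not mean level markers.

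Single neuron markers were not all alike. Of the 15, 2 rose and none fell, with a median log2 fold change of 0.12. Over all genes 6.58% passed in either direction. Of all 13919 genes tested, 2944 had an unadjusted p under 0.05 in edgeR. At that level 5 of the markers were higher and 1 (Camk2a) was lower. Among the higher ones that did not pass, Rbfox3 stood at 0.21, Snap25 at 0.21 and Syn1 at 0.24. Nefl stood at 0.25 and Ina at 0.28, so these 2 subunit genes were not set clearly apart from such markers. Nor was Nefh, at 0.42 ± 0.11, set apart from the 2 markers that rose. Nefm, at 0.67 ± 0.10, stood above every marker, but its SE range overlapped that of Slc17a6. The vesicular glutamate transporter gene Slc17a6 rose from 42.1 ± 3.08 to 62.1 ± 6.29 CPM (0.56 ± 0.09, adjusted p = 0.00246, edgeR), and the synaptic calcium sensor gene Syt1 from 463.4 ± 38.3 to 582.7 ± 58.7 CPM (0.33 ± 0.09, adjusted p = 0.0489). Syt1 passed in 8 of 17 other settings and not when any 1 library other than PFF 3 was left out, with an adjusted p up to 0.274. Slc17a6 passed in all 17. With replicates 1 and 2 only, 5 of the markers were called higher and 1 lower, where 8.78% of all genes passed upwards and 8.38% downwards. The kinase gene Camk2a, which stands in this list and among the kinases below, stood at −0.26 ± 0.09 on the log2 scale (adjusted p = 0.0965).

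**Figure D4:**
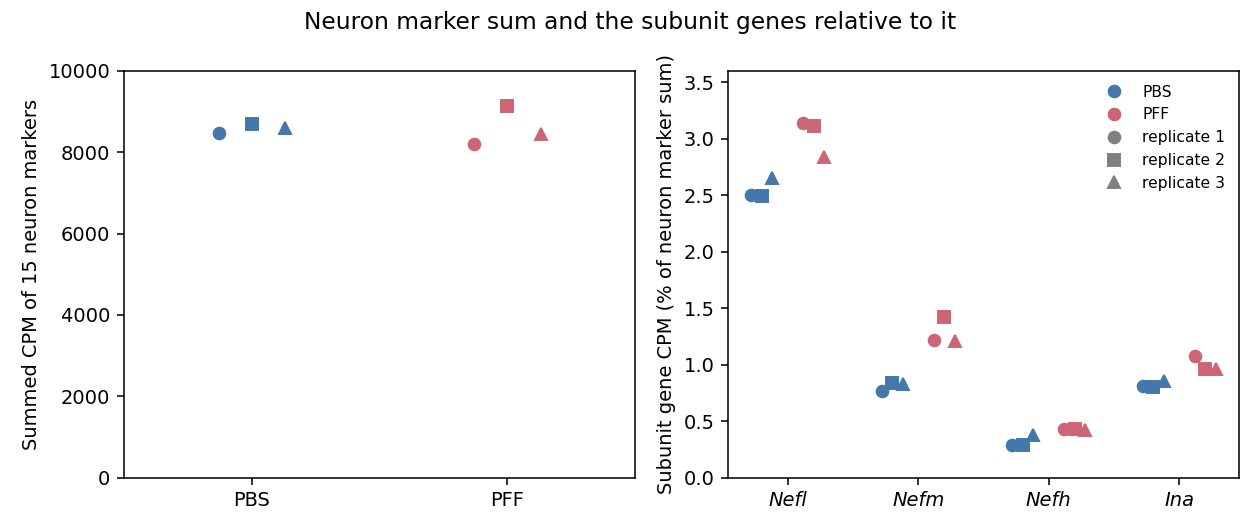
Left, summed CPM of 15 neuron markers (y axis) in the PBS and PFF libraries; right, CPM of each subunit gene as a percentage of that sum (y axis), with 1 point per library. The marker sums overlap between the groups, and the percentages of all 4 subunit genes are higher in PFF, with Nefm at 0.766 to 0.834% in PBS and 1.21 to 1.42% in PFF.

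Glial markers moved in the same libraries, where 3.98% of all genes rose and 2.60% fell. Microglia and macrophage markers rose in 8 of 9 tested genes and fell in none, with a summed level of 71.6 to 126 CPM in PBS and 236 to 281 CPM in PFF; with replicates 1 and 2 only 5 were called. Markers of myelinating oligodendrocytes rose in 6 of 7 and fell in none (399 to 486 CPM and 643 to 976 CPM). The remaining one, Cnp, stood at −0.26 ± 0.10 (adjusted p = 0.163, edgeR). With replicates 1 and 2 only, 5 of the myelin markers were called higher and 1 lower. For this count and that of the microglia markers, 8.78% of all genes passed upwards and 8.38% downwards. Progenitor markers of the oligodendrocyte lineage fell in 7 of 7 (714 to 874 CPM and 507 to 544 CPM). Astrocyte markers fell in 3 of 8 and rose in none. No endothelial, pericyte or fibroblast marker of 7 passed in edgeR or DESeq2. At an unadjusted p under 0.05, which 2944 of all 13919 genes had, 2 of these markers were lower. The part of these changes in the neurofilament values was not tested.

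The other intermediate filament genes stood on both sides of 0. Of 14 tested genes for other filaments, lamins and filament linkers none passed in edgeR, DESeq2 or limma-voom, where 6.58% of all genes did (edgeR). At an unadjusted p under 0.05, which 2944 of all 13919 genes had, 1 of the list was higher and 3 were lower. The median log2 fold change of the list was −0.07, beside −0.001 over all genes. Peripherin (Prph), the other neurofilament-associated subunit, known mainly from peripheral neurons, was low, at 1.17 to 2.31 CPM in PBS and 1.37 to 1.68 CPM in PFF. Vimentin (Vim), the filament of glia and immature cells, had 382.1 ± 53.8 and 361.8 ± 43.4 CPM, and Gfap, the astrocyte filament, 1689 ± 228 and 1837 ± 412 CPM. The progenitor filament nestin (Nes) had 35.9 ± 6.75 and 33.7 ± 6.80 CPM. Prph, Vim, Gfap and Nes were named after their values were seen. The nuclear lamin gene Lmna had 25.2, 20.2 and 21.5 CPM in PBS and 28.9, 34.5 and 25.9 CPM in PFF (0.42 ± 0.12, adjusted p = 0.0573), and Lmnb1 stood at −0.22 ± 0.10 (adjusted p = 0.218). Among linkers, the spectraplakin gene Macf1 stood at −0.28 ± 0.09 (adjusted p = 0.0869). The lens filament gene Bfsp2 stood at −0.93 ± 0.40 from 2.28 ± 1.16 CPM in PBS (adjusted p = 0.197). With replicates 1 and 2 only, Lmna (0.49, adjusted p = 0.00498) and the linker plectin (Plec, 0.26, adjusted p = 0.0252) passed upwards and Bfsp2 passed downwards. Of all genes, 8.78% passed upwards and 8.38% downwards with these replicates. Without PFF 3, Lmna and Plec passed, where 6.19% of all genes passed upwards and 7.01% downwards.

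Kinases and phosphatases that act on neurofilament tails were tested as a further list. None of 25 passed, where 6.58% of all genes did in either direction. At an unadjusted p under 0.05, which 2944 of all 13919 genes had, 2 of the list were higher and 2 lower. DESeq2 called 1 lower and limma-voom none, and the median log2 fold change was 0.04. The calcium-dependent kinase gene Camk2b had means of 563 ± 12.3 and 666 ± 39.7 CPM (0.24 ± 0.08, adjusted p = 0.0855). Its partner Camk2a had 1651 ± 34.9 and 1379.5 ± 116 CPM. The main neurofilament tail kinase Cdk5 stood at −0.17 ± 0.08 (adjusted p = 0.211), and the protein kinase A subunit Prkacb at 0.18 ± 0.08 (adjusted p = 0.202). With replicates 1 and 2 only 5 of the list passed upwards (8.78% of all genes) and 2 downwards (8.38%). Without PFF 3 there were 4 (6.19% of all genes) and 2 (7.01%), with Cdk5 and Camk2a the lower ones in both.

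Among 25 tested genes of neurofilament transport, turnover and mRNA binding 2 fell and none rose, where 2.60% of all genes fell, and the median was 0.03. Arhgef28, a guanine nucleotide exchange factor that also binds the Nefl mRNA, fell from 13.1, 14.9 and 12.1 CPM to 10.1, 8.22 and 9.79 CPM (−0.51 ± 0.14, adjusted p = 0.0422). Cryab, the small heat shock protein αB-crystallin, a chaperone of intermediate filaments, fell from 36.2, 27.1 and 34.7 CPM to 25.5, 21.7 and 24.3 CPM (−0.45 ± 0.12, adjusted p = 0.0350). Glial markers moved in the same libraries, and the cells that carried Arhgef28 and Cryab were not tested. Neither call was firm. Cryab passed without PBS 2 or PFF 3 but not without any of the other 4 libraries (adjusted p up to 0.192). Arhgef28 passed without PBS 3 or PFF 3 only (up to 0.217 otherwise) and not in DESeq2 (0.0721), and neither passed with scaling by library size only. The dynein intermediate chain gene Dync1i1 stood at 0.23 ± 0.08 (adjusted p = 0.116), and the calpain inhibitor gene Cast at 0.59 ± 0.20 from 4.01 ± 0.847 CPM (adjusted p = 0.112). The kinesin motor gene Kif5a, which carries neurofilaments along axons and was named after its values were seen, had means of 3881 ± 131 and 3599 ± 450 CPM (−0.11 ± 0.10, adjusted p = 0.583). Hspb1 had at most 5 counts in a library and was not tested. With replicates 1 and 2 only 3 genes of this list were called higher and 2 lower. Of all genes, 8.78% then passed upwards and 8.38% downwards.

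The membrane skeleton of the axon was followed through genes for spectrins, ankyrins and the axon initial segment. None of 18 passed in edgeR, DESeq2 or limma-voom, where 6.58% of all genes did in edgeR. At an unadjusted p under 0.05, which 2944 of all 13919 genes had, 1 of the list was higher. The median log2 fold change of the list was 0.06. The βIV-spectrin gene Sptbn4, part of the initial segment scaffold, had 69.0 ± 3.90 and 79.9 ± 2.83 CPM (0.21 ± 0.08, adjusted p = 0.131). The microtubule organiser Trim46 stood at 0.16 ± 0.07 (adjusted p = 0.241), the sodium channel gene Scn8a at 0.15 ± 0.08 (0.294) and the adhesion gene L1cam at 0.15 ± 0.08 (0.304).

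In the list of axon growth and injury response 1 of 20 genes rose and 1 fell, where 3.98% and 2.60% of all genes did, with a median of −0.01. Atf3, a transcription factor induced by axon injury and also expressed in immune cells, rose from 9.85, 7.96 and 7.89 CPM to 18.8, 16.0 and 16.7 CPM (1.00 ± 0.14, adjusted p = 0.000386), with no overlap between groups. It passed in all 17 other settings. The microglia markers named above rose in the same libraries, and the cells that carried Atf3 were not tested. Dpysl3, a growth cone protein of the collapsin response family, fell from 386.5 ± 7.60 to 317.7 ± 8.33 CPM (−0.28 ± 0.07, adjusted p = 0.0308). Without PFF 3 it still passed, but not without any 1 of the other 5 libraries (0.0687 to 0.132), nor with library-size scaling (0.0507). The neuronal tubulin gene Tubb3 stood at 0.29 ± 0.09 (adjusted p = 0.0635), and the injury-induced peptidase gene Ecel1 at −0.38 ± 0.15 (adjusted p = 0.157). Gap43, the growth-associated protein named after its values were seen, stood at 0.01. With replicates 1 and 2 only 3 genes of the list were called higher and 1 lower. Of all genes, 8.78% then passed upwards and 8.38% downwards.

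**Figure D5:**
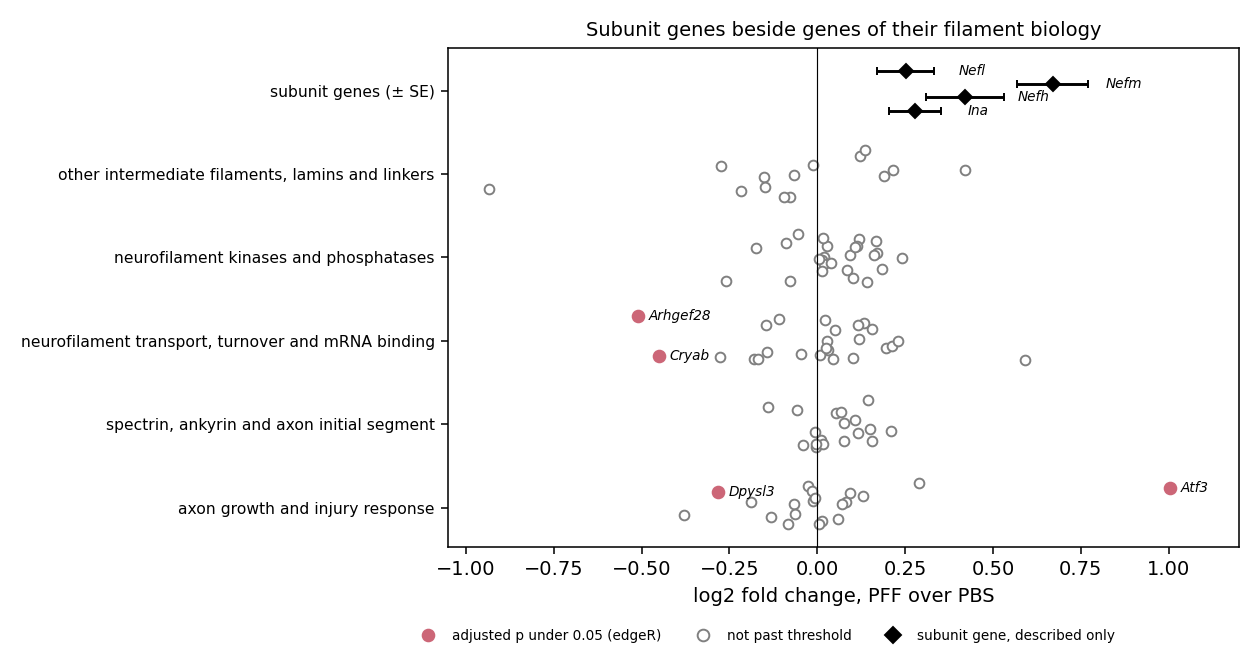
log2 fold change of PFF over PBS (x axis) for the 4 subunit genes with SE (diamonds) and for each tested gene of 5 lists (circles, spread vertically for legibility); filled circles passed an adjusted p under 0.05 in edgeR. Only Arhgef28, Cryab, Dpysl3 and Atf3 are filled, and the subunit genes lie between 0.25 and 0.67.

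The expressed neighbours of the 4 genes gave values of their own. Thoc5, 9.89 kb from Nefh, stood at −0.01 ± 0.10 (adjusted p = 0.971), and Ap1b1 on its other side at 0.15 ± 0.07 (adjusted p = 0.245). Pcgf6, 8.29 kb from Ina, stood at 0.15 ± 0.14 (adjusted p = 0.584) and Cnnm2 at 0.07 ± 0.11 (adjusted p = 0.795). Nt5c2, whose exons overlap Ina, had means of 53.9 ± 4.73 and 54.6 ± 2.05 CPM (0.02 ± 0.09, adjusted p = 0.930). Beyond Nefl and Nefm the nearest tested coding genes were Dock5 (0.44 ± 0.15, adjusted p = 0.113), 149 kb from Nefm, and Stc1 (−0.06 ± 0.13, adjusted p = 0.830), 904 kb away. None of these 7 genes passed in edgeR, DESeq2 or limma-voom, where 6.58% of all genes did in edgeR. At an unadjusted p under 0.05, which 2944 of all 13919 genes had, only Dock5 of the 7 passed.

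The comparison of expression patterns covered 10005 other genes at a mean of 10 CPM or more. Those whose log2 CPM over the 6 libraries was most like the mean of the subunit genes were Ankrd33b, Eif4g1, Galnt13, Brinp1, Prmt8 and Eif3a, with Pearson's r from 0.995 to 0.998. The neural gene Brinp1 rose from 210.4 ± 12.4 to 277.7 ± 20.5 CPM (0.40 ± 0.08, adjusted p = 0.00825), and the translation initiation factor subunit Eif3a by 0.27 ± 0.07 (adjusted p = 0.0419). The scaffold of translation initiation Eif4g1 stood at 0.16 ± 0.07 (adjusted p = 0.221). Nearest to Nefl were AI593442 (r = 0.999), the endocytosis gene Pacsin1 and the importin gene Ipo5. Nearest to Nefm were the helicase gene Ddx54, Slc17a6 and the phosphatase gene Ppm1g, with r of 0.997, 0.995 and 0.995. Nceh1, Crk and the integrin gene Itgav were nearest to Nefh (0.990 to 0.993), and Bcar3, Phf24 and Zfp622 to Ina (0.991 to 0.996). These likenesses rest on 6 libraries that share the contrast, depth and scaling.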

How the data were processed

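RNA of mouse cortical neuron cultures was sequenced as 6 libraries (3 PBS, 3 PFF) made with a directional kit, as the labels' protocols state. The authors deposited an estimated count per gene and library without scaling, and 8.69% of these values were not whole. The submitters' processing notes name Trim Galore 0.6.6, STAR 2.7.9a, mm10 and DESeq2 1.38.3. For the counting tool and its annotation, the sources used here give no name.

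Columns were matched to samples by name and counts were rounded. In R 4.3.3, edgeR 4.0.16 (filterByExpr, TMM, robust quasi-likelihood F-test, two-sided, Benjamini-Hochberg over 13919 genes, 10492 removed) compared the groups, with SE as the log2 fold change divided by the square root of F. Log2 CPM used a prior count of 2. CPM per kb used GENCODE vM21 exonic bases (GRCm38, the assembly of mm10). Steps were tested on simulated data.

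The subunit genes and all lists were chosen with earlier results of these data known. Named were the 4 subunit genes, list genes past the threshold (up to 8) or else the 4 with the smallest p, the most correlated genes, neighbours, overlapping genes and up to 3 markers per cell type. Alternatives were other scalings, filters and tests (DESeq2 1.42.0, limma 3.58.1), a replicate block, left-out libraries, removal of Rn45s, neuron marker scaling and other lengths.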

Additional observations from a re-analysis of the deposited data

How the results depend on the processing

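The number of genes changed, 916, was 414 at an adjusted p under 0.01, 2394 with replicates 1 and 2 only, and 412 to 1858 with 1 library left out (lowest without PFF 2, highest without PFF 3). With the replicate block it was 1997. Same-numbered libraries share only a number: the deviations from the group means correlated at 0.0919, 0.109 and 0.202 for replicates 1, 2 and 3, and 4 of the 6 libraries correlated best with their own number. Under the block calls over all genes thus went from 916 to 1997. The filament, kinase, transport and spectrin lists (14, 25, 25 and 18 tested genes) had 2, 2, 4 and 1 called, against 0, 0, 2 and 0. The injury list (20 tested genes) had 3 against 2, and 4 of the subunit genes passed against 3. The 4 subunit genes were higher in PFF in every setting, and moved by more than the replicate SD only with replicates 1 and 2 only (Nefh 0.59, Ina 0.35). With these replicates the lists, in the order filament, kinase, transport and injury, had 3, 7, 5 and 4 genes called. Over all genes 8.78% then passed upwards and 8.38% downwards. With 1 library left out the ranges were 0 to 2 (filament), 0 to 6 (kinase), 0 to 4 (transport) and 1 to 3 (injury). Other settings that moved a list were no low-count filter (2 filament genes), library-size scaling (1 kinase gene and 0 transport genes) and DESeq2 (1 kinase and 1 transport gene). The difference in subunit share between PFF and PBS was 3.07 percentage points for Nefm (4.18 over the longest transcript, 4.37 with no length division) and −2.99 for Nefl (−3.69 and −3.87). For Ina it was −0.58 and reversed to 0.02 without PFF 2, with a range of −1.03 to 0.02 over the left-out libraries. Why these values moved was not tested. Depth limits Nefh most, at 230 to 402 counts per library.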
